A study of Danio rerio with 13 samples.

Results

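Liver RNA of male zebrafish without a functional copy of tert was compared with liver RNA of their heterozygous counterparts, with gut transcripts in the livers taken into account. The comparison held 8 of the 13 livers of the series, 3 from tert-/- and 5 from tert+/- fish, and 15166 of 32105 genes were tested. Each genotype had 1 liver in which apoea (ENSDARG00000102004), an apolipoprotein of lipoprotein particles, exceeded 1000 CPM (counts scaled to 1e6 counts of the liver). These livers had 11863 CPM in tert-/- liver 1 and 11873 CPM in tert+/- liver 3, and the highest of the other 6 livers had 2.15 CPM. The levels of the block were thus chosen by the measured apoea values, and entered the fit as a block beside genotype. For that reason the difference between the apoea levels is described here without a test.

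All fish were labelled as AB strain, male and 3 months old. The methods name the tert hu3430 line, which carries a nonsense mutation, and both genotypes carry the mutant allele, on both chromosomes in tert-/- and on 1 in tert+/-. The other 5 livers of the series are tert+/+ and served only as side values. Each liver has its own fish number in the labels, no batch is given, and the liver numbers used here are names only.

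Telomerase adds repeats to chromosome ends, and its catalytic subunit is encoded by tert. Zebrafish without it lose telomere sequence and show early ageing in tissues that divide often, of which the gut is one. The liver makes plasma proteins and lipoproteins, synthesises cholesterol, and handles fatty acids, retinoids and steroid hormones. The question was which liver genes differ between fish with 0 functional copies of tert and fish with 1, once gut transcripts are held apart.

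Totals were 28590922 to 33745587 counts in tert-/- livers and 21273777 to 37309651 counts in tert+/- livers. The fatty acid binding protein fabp10a (ENSDARG00000038439), a hepatocyte marker, had between 17978 and 33798 CPM in the 6 livers below the apoea limit. It had 2912 CPM in tert-/- liver 1 and 2320 CPM in tert+/- liver 3. Villin (VIL1), a protein of the intestinal brush border, had 1861 CPM in tert-/- liver 1 and 1362 CPM in tert+/- liver 3, and at most 0.636 CPM in the other 6. The intestine markers without apolipoproteins took 4.68% of the counts in tert-/- liver 1 and 2.99% in tert+/- liver 3, against at most 0.0517% in the rest, so the label of the block matched its markers. In bulk tissue, fewer cells of a type and less RNA per cell cannot be told apart.

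The block did not remove every difference in tissue makeup. Exocrine pancreas transcripts took 1.25% of the counts in tert-/- liver 1, against 0.0303% to 0.1005% in the other 7 livers, and insulin (ins) had 38.7 CPM there and at most 0.889 CPM elsewhere. Striated muscle transcripts took 1.55% of the counts in tert+/- liver 5, against at most 0.0851% in the other 7, with 3166 CPM of the cardiac myosin light chain MYL7. Mitochondrially encoded transcripts took 21.0%, 32.8% and 7.93% of the counts in tert-/- livers 1, 2 and 3, and 40.3% in tert+/- liver 3 but 8.02% to 10.5% in the other tert+/- livers. The part of these sources in the gene differences that follow was not tested, and the main counts are given with and without the livers concerned.

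**Figure D1:**
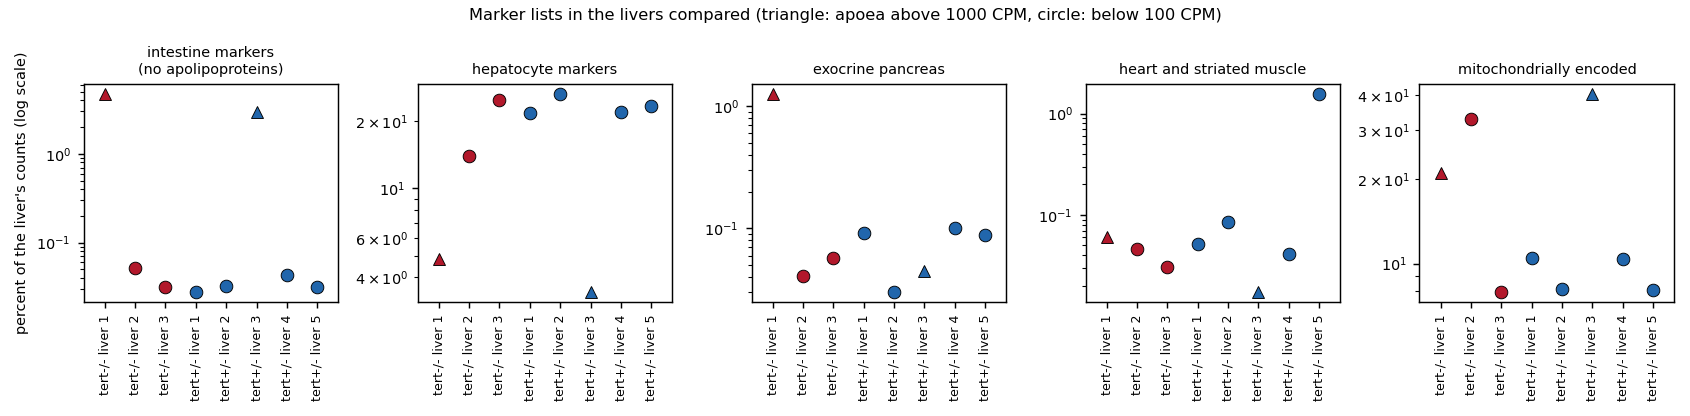
Percent of each liver's counts (log scale) in 5 marker lists, with tert-/- livers in red on the left and tert+/- livers in blue on the right. Triangles are the livers with apoea above 1000 CPM, which hold 4.68% and 2.99% of intestine markers, and tert-/- liver 1 alone reaches 1.25% of exocrine pancreas markers.

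No gene passed the test with the block. Of 15166 genes, 0 (0%) had an adjusted p under 0.05 by edgeR's quasi-likelihood test with Benjamini-Hochberg adjustment, and the smallest adjusted p was 0.728. DESeq2 with the same block called 3 genes (0.0198%). At an unadjusted p under 0.05 edgeR gave 258 genes, 123 higher (0.811%) and 135 lower (0.890%) in tert-/- livers, which is below the 758.3 genes that make up 5% of those tested. With the 6 livers below the limit alone the count of calls was also 0, with 341 genes at an unadjusted p under 0.05, and it was 0 again when tert+/- liver 5 with its muscle transcripts was also left out (346 genes).

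The fitted log2 fold change was above 0 for 7286 genes (48.0%), its median over all genes was -0.02, as TMM centres it near 0, and it exceeded 1 in size for 1055 genes. The apoea level alone accounted for 52.5% of the variance of log2 CPM among the 8 livers, genotype alone for 6.66%, and both for 57.9%. Any split of the 8 livers takes a part of the variance. The part that swapped genotype labels would take was not computed, so 6.66% is not a measured genotype effect. The common dispersion was 0.255 with the block and 0.482 without it, and the median standard error of the genotype difference was 0.40 with the block and 0.51 without it. The standard error was smaller with the block for 12056 genes. Even so, the fit without the block also called 0 genes, with 170 at an unadjusted p under 0.05, of which 107 were among the 258.

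As a description of direction, a gene was counted as not overlapping when both tert-/- livers below the limit stood on 1 side of all 4 tert+/- livers there, and the tert-/- liver above the limit stood on the same side of its tert+/- counterpart. There were 276 such genes higher (1.82%) and 261 lower (1.72%) in tert-/- livers. For a gene without ties, 1 of the 30 label arrangements within levels gives such an order in each direction. That fraction of 0.0333 is larger than both shares, so these counts describe direction only. The 24 genes with the smallest p were 12 higher and 12 lower, leaving out genes whose mean log2 CPM was under 1. All of them but the muscle-type carnitine transferase gene CPT1B were among the genes that did not overlap. A small p in the fit to these same livers favours equal direction in both levels, so this follows largely from the choice.

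Taken over both apoea levels, the targeted gene itself did not separate the genotypes compared. The tert transcript (TERT, ENSDARG00000042637) had 5.23, 5.88 and 4.04 TMM-normalised CPM in tert-/- livers 1, 2 and 3, against 3.43, 2.75, 10.3, 3.51 and 2.79 in tert+/- livers 1 to 5. The highest value was thus in the gut-marked tert+/- liver 3, and below the limit both tert-/- livers stood above all 4 tert+/- livers. The log2 fold change was 0.24 (SE 0.36, adjusted p = 1 by edgeR). The within-level difference in log2 CPM was 0.20 (two-sided exact permutation within levels, p = 0.567, with 0.0333 the smallest p possible over 30 arrangements). It was -0.14 without tert-/- liver 2 and stood at 0.67 in the livers below the limit. A nonsense allele can be transcribed, so these counts do not check the genotype labels.

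Among the genes lower in tert-/- livers, 1 without a symbol had the smallest p and the largest separation. ENSDARG00000099419 had 0.072, 0.0482 and 0.0879 CPM in tert-/- livers 1, 2 and 3, from 7 counts in all. In tert+/- livers 1 to 5 it had 33.0, 38.5, 11.6, 3.55 and 44.6 CPM, so every tert+/- liver lay above every tert-/- liver on either side of the limit. The log2 fold change was -8.17 (SE 1.07, adjusted p = 0.728 by edgeR, 1.22e-16 by DESeq2). The pooled level was 380 times higher in tert+/- than in tert-/- livers (95% counting interval 184 to 947, which leaves out the spread between livers). Leaving out tert+/- liver 4, the lowest of its group, gave the only edgeR call of any single-liver omission, with an adjusted p of 0.00455. When all 13 livers were scaled together, the 4 tert+/+ livers below the limit had 33.5, 0, 31.1 and 0 CPM. The gut-marked tert+/+ liver 5 had 0.0287 CPM, so livers of the tert+/+ genotype held both high and near-absent levels.

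SLC25A38 (ENSDARG00000059805), named after the mitochondrial glycine carrier needed for heme synthesis, had 2.54, 7.13 and 13.4 CPM in tert-/- livers 1 to 3 and 91.2, 25.2, 35.8, 32.9 and 37.02 CPM in tert+/- livers 1 to 5. No tert-/- liver reached the lowest tert+/- liver, although tert+/- liver 1 stood far above its group. The log2 fold change was -2.59 (SE 0.57) and lay between -3.11 and -2.15 when 1 liver was left out, with an adjusted p of 1 by edgeR and 0.00867 by DESeq2. PGP, a phosphoglycolate phosphatase, showed the same full separation, at 14.1, 19.6 and 22.7 CPM in tert-/- livers and 41.5, 72.1, 24.1, 52.5 and 45.9 CPM in tert+/- livers (log2 fold change -1.17, SE 0.27).

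SLC3A2 encodes the heavy chain shared by several amino acid exchangers. It had 1.66, 9.25 and 9.64 CPM in tert-/- livers and 21.3, 20.0, 5.92, 13.8 and 17.7 CPM in tert+/- livers, which separated within each level but not across them (log2 fold change -1.18, SE 0.27). The transcription factor gene foxo3b had 9.96, 34.2 and 42.1 CPM in tert-/- livers and 74.4, 56.1, 16.4, 56.5 and 91.9 CPM in tert+/- livers. Its log2 fold change was -0.83 (SE 0.25), again with both gut-marked livers lowest in their own genotype. CPT1B had 1.37, 13.9 and 9.64 CPM in tert-/- livers and 64.8, 194, 21.2, 38.8 and 12.1 CPM in tert+/- livers. The largest value, in tert+/- liver 2, lies far above the others, and tert+/- liver 5 was below tert-/- liver 2 (log2 fold change -3.03, SE 0.86).

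The remaining 6 of the 12 lower genes had log2 fold changes of -2.47 to -0.85. They were the phosphatase and actin regulator PHACTR3, the calcineurin regulator RCAN3, the decoy chemokine receptor ACKR4, the hypoxia-inducible mitochondrial protein higd1a, the sodium-coupled solute carrier slc5a8l, and TMEM263. The change of slc5a8l was read in livers that differ widely in level, with 86.7 CPM in tert-/- liver 1 and 134 CPM in tert+/- liver 3, but 0.82 CPM in both other tert-/- livers and 1.37 to 1.75 CPM in the other tert+/- livers.

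The last of the genes called by DESeq2 rests on presence or absence. zgc:171470 had 0 counts in all 3 tert-/- livers and also in tert+/- livers 1 and 5, but 135, 8.64 and 108 CPM in tert+/- livers 2, 3 and 4. Among tert+/+ livers it ranged from 0 to 115 CPM, so livers of 2 genotypes held both states. The adjusted p was 8.01e-10 by DESeq2 and 1 by edgeR.

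Of the genes higher in tert-/- livers, ENC1, which encodes an actin-binding kelch protein, had the smallest p. It had 7.53, 32.3 and 65.5 CPM in tert-/- livers 1 to 3 and 13.4, 20.3, 3.48, 21.9 and 18.6 CPM in tert+/- livers 1 to 5. Both gut-marked livers were the lowest of their genotype, and within each level tert-/- livers stood higher (log2 fold change 1.32, SE 0.28, adjusted p = 1 by edgeR). Without tert-/- liver 3 it was 0.92.

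RXRA (ENSDARG00000057737), a retinoid X receptor that pairs with many nuclear receptors of lipid metabolism, had 31.4, 104 and 49.6 CPM in tert-/- livers and 46.6, 31.5, 10.7, 30.8 and 44.7 CPM in tert+/- livers. Below the limit tert-/- liver 3 exceeded tert+/- liver 1 only narrowly, and above the limit tert-/- liver 1 stood 1.54 higher than tert+/- liver 3 on the log2 scale. The fitted log2 fold change was 1.15 (SE 0.31), and 0.85 without tert-/- liver 2. The keratin gene krt5 had 3.91, 11.2 and 6.97 CPM in tert-/- livers against 4.99, 4.47, 1.597, 2.72 and 4.55 CPM in tert+/- livers (log2 fold change 1.16, SE 0.30). MEPCE, which caps the 7SK RNA, gave the most even difference, with 10.8, 6.21 and 6.53 CPM in tert-/- livers and 3.77, 3.74, 6.11, 3.59 and 3.34 CPM in tert+/- livers. Its difference was 0.82 on the log2 scale above the limit and 0.81 below it.

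The other 8 higher genes had log2 fold changes of 0.77 to 3.36. cicb, a homologue of the repressor capicua, had 14.5, 15.03 and 36.99 CPM in tert-/- livers and 6.96 to 13.9 CPM in tert+/- livers, so all 3 tert-/- livers stood above all 5 tert+/- livers. SEMA4B, a semaphorin, reached 60.6 CPM in tert-/- liver 3 and had 7.56 to 25.3 CPM in tert+/- livers. The bicarbonate cotransporter SLC4A4, the inositol cotransporter SLC5A11, the cadherin dchs2, parp4, cabp2b and zgc:123295 had their highest values in the gut-marked livers of both genotypes. For SLC5A11 these were 28.3 CPM in tert-/- liver 1 and 19.3 CPM in tert+/- liver 3, against 1.11 and 0.615 CPM in tert-/- livers 2 and 3 and at most 0.0394 CPM in the other tert+/- livers. Below the limit SLC4A4 had 0.193 and 0.41 CPM in tert-/- livers 2 and 3 and 0.118 to 0.156 CPM in tert+/- livers. There zgc:123295 had 0.771 and 0.527 CPM against 0.147 to 0.364 CPM. Both genes were near the floor in these livers, with at most 14 counts of SLC4A4 and 18 of zgc:123295 in any of them.

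**Figure D2:**
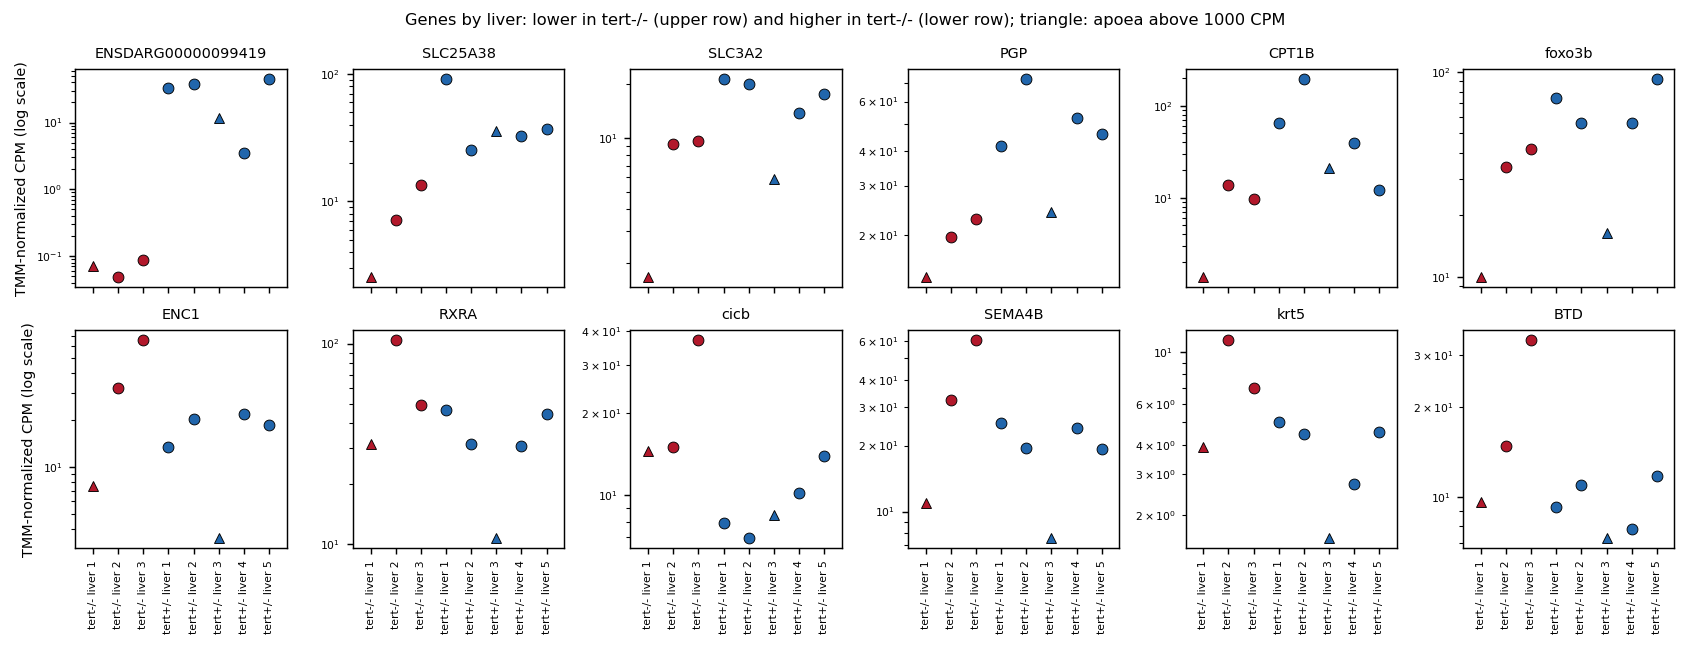
TMM-normalised CPM (log scale) of 12 genes in each liver, with lower genes in the upper row and higher genes in the lower row, tert-/- livers in red on the left and tert+/- livers in blue on the right. Triangles are the gut-marked livers, and PGP shows all 3 tert-/- livers (14.1 to 22.7 CPM) below all 5 tert+/- livers (24.1 to 72.1 CPM).

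Below the limit and with all 13 livers scaled together, the tert+/+ mean lay nearer to the tert-/- mean for 11 of the 24 genes with the smallest p and nearer to the tert+/- mean for 13. Of the first kind, SLC25A38 averaged 9.94 ± 4.27 CPM in tert-/- (n = 2), 45.2 ± 29.2 CPM in tert+/- (n = 4) and 10.1 ± 7.31 CPM in tert+/+ livers (SD, n = 4). In the same order, foxo3b averaged 37.02 ± 5.43, 67.7 ± 16.6 and 21.9 ± 11.5 CPM, higd1a 40.2 ± 11.3, 76.4 ± 19.0 and 39.5 ± 13.0 CPM, and MEPCE 6.18 ± 0.218, 3.50 ± 0.192 and 6.22 ± 0.96 CPM. Of the second kind, SLC3A2 had 9.16 ± 0.266 CPM in tert-/-, 17.7 ± 3.202 CPM in tert+/- and 17.1 ± 8.93 CPM in tert+/+ livers, and ENC1 47.4 ± 22.8, 17.98 ± 3.56 and 26.3 ± 7.39 CPM in the same order. Since the tert+/- values helped to choose these genes, the order of the 3 genotypes is given without a test.

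The genotype differences of the 2 apoea levels had little in common across genes. Above the limit it is the difference of 1 tert-/- and 1 tert+/- liver, and below the limit that of 2 tert-/- and 4 tert+/- livers, so both share no liver. Across the 15166 genes their correlation was r = -0.13 and rho = -0.16, and 6641 genes (43.8%) had the same sign in both. Genes are not independent replicates, so this is a description. The median absolute difference was 0.42 above and 0.28 below the limit on the log2 scale. In the test of the genotype by level interaction 0 genes passed by edgeR, and 420 had an unadjusted p under 0.05 (limma-voom also called 0).

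**Figure D3:**
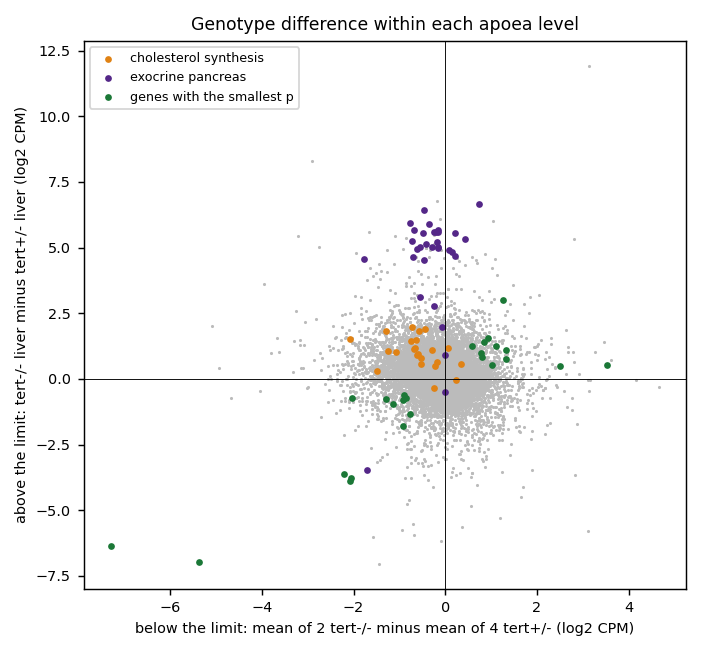
Genotype difference in log2 CPM below the apoea limit (x axis, 2 tert-/- minus 4 tert+/- livers) and above it (y axis, 1 tert-/- minus 1 tert+/- liver), 1 point per gene. Cholesterol synthesis genes (orange) sit mostly to the upper left and exocrine pancreas genes (purple) at the top. The genes with the smallest p (green) sit in the 2 quadrants of equal sign, while over all genes r is -0.13. The green genes were chosen by fits to these same livers, which favour equal signs.

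Whole gene groups stood on opposite sides in the 2 levels. All 80 ribosomal protein genes had a higher mean in tert-/- livers below the limit (median difference 0.39) and all 80 stood lower above it (-0.60). The 13 mitochondrially encoded genes did the same, with medians of 1.001 below and -1.58 above, as did most nuclear genes of the respiratory chain (56 of 78 higher below, 1 of 78 higher above). By liver, the ribosomal list had a median log2 CPM of 10.3 and 9.87 in tert-/- livers 2 and 3. The tert+/- livers below the limit had 9.13 to 9.98, so tert-/- liver 3 lay within their range. For mitochondrially encoded genes the values were 14.2 and 11.7, against 11.5 to 12.2, so tert-/- liver 2 alone stood higher. For nuclear respiratory chain genes they were 6.68 and 6.56, within the tert+/- range of 6.44 to 6.81. Over all genes 49.3% stood higher below the limit and 52.1% above it. With column totals in place of TMM the median of all genes shifted to -0.24 below and 0.74 above the limit. On that scale 78 of 80 ribosomal protein genes stood higher below and 59 of 80 stood higher above, with a median of 0.14 that is still under the median of all genes. The respiratory chain genes on that scale had 15 of 78 higher below (median -0.14) and 59 of 78 higher above (0.19). Beside them, 4058 of all 15166 genes stood higher below and 13562 above. The median of the list thus stayed over that of all genes below the limit and under it above the limit. The 13 mitochondrially encoded genes all stayed higher below and lower above.

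Interferon response genes had 25 of 42 members higher below the limit (median 0.15) and 2 of 42 higher above it (-0.77). Cell cycle genes (9 of 43 higher below, 30 of 43 higher above) and red blood cell genes (2 of 18 below, 16 of 18 above) ran the other way. With column totals the interferon list stood at 16 of 42 below and 20 of 42 above, with medians of -0.09 and -0.05 beside those of all genes.

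Cholesterol synthesis gave the clearest opposition among metabolic groups. The enzymes of this pathway build sterol from acetyl units and are transcribed together under the SREBP factors. Of 23 genes tested, 3 stood higher and 20 lower in tert-/- livers below the limit (median difference -0.59), and 21 stood higher and 2 lower above it (1.07). With the block the list therefore had 12 genes higher and 11 lower, 0 at an unadjusted p under 0.05, and a median log2 fold change of 0.03 beside -0.02 for all genes. Without the block its median was 0.52.

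The squalene epoxidase gene SQLE had 324, 1.35 and 48.5 CPM in tert-/- livers 1 to 3 and 13.6, 7.32, 114, 73.4 and 203 CPM in tert+/- livers 1 to 5. Livers of each genotype thus spread widely, and the log2 fold change of -0.78 carried a standard error of 1.56. HMGCS1, an early enzyme of the pathway, had 1476, 52.7 and 166 CPM in tert-/- livers and 134, 66.0, 702, 506 and 561 CPM in tert+/- livers. MSMO1 had 699, 27.5 and 350 CPM in tert-/- livers and 83.5, 79.3, 254, 198 and 568 CPM in tert+/- livers. Levels spread as widely within a genotype as between them, and tert-/- liver 2 had the lowest level of all 3 genes, followed by tert+/- livers 1 and 2 for SQLE.

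MVD had the smallest p of the list (log2 fold change -1.13, SE 0.68). FDPS, LSS, SC5D and HSD17B7 had log2 fold changes of 0.13 to 0.63 with standard errors of 0.68 to 1.23.

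Genes of sterol regulation and uptake had 7 of 26 members higher and a median log2 fold change of -0.34. By level, 9 of 26 stood higher below the limit (median -0.41) and 14 of 26 above it (0.15). insig1, which holds the sterol sensor in the endoplasmic reticulum, had 62.2, 27.21 and 20.8 CPM in tert-/- livers and 41.7, 84.6, 70.6, 176 and 149 CPM in tert+/- livers. Within each level tert-/- livers stood lower, by 0.18 above and 2.04 below the limit on the log2 scale (fitted log2 fold change -1.68, SE 0.62). The cholesterol-esterifying SOAT1 (-1.43, SE 0.73) and the sterol exporter ABCG5 (-0.58, SE 0.28) were next, and both overlapped.

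Fatty acid and triglyceride synthesis had 15 of 35 genes higher (median -0.08), and fatty acid oxidation and ketogenesis 16 of 44 (median -0.06, and 0.02 with column totals). In the first, ELOVL1, an elongase, had 4.58, 5.30 and 3.54 CPM in tert-/- livers and 7.93, 28.4, 13.9, 9.22 and 2.90 CPM in tert+/- livers, so the groups overlapped through tert+/- liver 5 (log2 fold change -1.49, SE 0.67). ACLY, which makes cytosolic acetyl-CoA, had a log2 fold change of -0.80 and FADS6, a desaturase, one of 0.77. In the second, the regulators PPARGC1A and PPARA followed CPT1B, at -1.23 (SE 0.63) and -1.36 (SE 0.80), lower below the limit but higher above it by 0.64 and 0.21.

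Among biotin and carboxylase genes, BTD alone had an unadjusted p under 0.05 by edgeR, in the higher direction, beside 0.811% of all genes. BTD encodes biotinidase, which frees biotin for reuse by the carboxylases. It had 9.62, 14.8 and 33.6 CPM in tert-/- livers and 9.25, 11.0, 7.28, 7.80 and 11.7 CPM in tert+/- livers, without overlap within levels (log2 fold change 1.05, SE 0.32). Without tert-/- liver 3 it was 0.51. Below the limit, tert+/+ livers had 2.13 to 5.69 CPM when all 13 livers were scaled together. The list had 7 of 11 genes higher, with a median of 0.06.

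In glycolysis and gluconeogenesis 18 of 45 genes stood higher (median -0.23), 1 did not overlap in the higher direction and 6 did not overlap in the lower one, beside 1.82% and 1.72% of all genes. The median was 0.0068 without tert+/- liver 5, where striated muscle transcripts were high, and -0.0011 in the livers below the limit alone. PFKP, a phosphofructokinase, had 5.64, 2.22 and 1.67 CPM in tert-/- livers and 2.89, 3.32, 10.4, 2.80 and 16.9 CPM in tert+/- livers. The highest value was in tert+/- liver 5, and the log2 fold change of -1.50 was -0.70 without that liver. The regulatory enzymes pfkfb4a (-1.07, SE 0.45) and PFKFB4 (0.65, SE 0.33) had opposite signs, and were -0.66 and 0.12 without tert-/- liver 3, which had 16.8 CPM of PFKFB4 against at most 8.51 CPM in the other 7 livers.

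Retinoid metabolism had 15 of 47 genes higher and a median of -0.13. At an unadjusted p under 0.05 by edgeR, RXRA alone was higher and 1 member was lower, beside 0.811% and 0.890% of all genes. The only lower one, the retinol binding protein gene rbp7a, had 0, 0 and 0.146 CPM in tert-/- livers and at most 0.571 CPM in tert+/- livers, from 5 counts in all tert-/- livers and at most 14 counts in a tert+/- liver. Its relative RBP7 had 0.216, 3.90 and 2.93 CPM in tert-/- livers and 5.63, 6.13, 0.141, 13.8 and 18.2 CPM in tert+/- livers (log2 fold change -1.28, SE 0.61). Below the limit tert-/- livers were thus the lowest, and above it the order was reversed at levels under 1 CPM.

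Sex hormone metabolism had 14 of 36 genes higher, a median of -0.15 and 0 at an unadjusted p under 0.05. The oestrogen receptor gene ESR2 had 20.3, 86.4 and 109 CPM in tert-/- livers and 236, 207, 45.2, 105 and 93.1 CPM in tert+/- livers (log2 fold change -0.84, SE 0.37). POR, the electron donor of microsomal cytochromes, was at -0.79 (SE 0.38), and HSD11B2, which inactivates cortisol, at -0.88 (SE 0.50). Within levels all 3 overlapped.

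Telomere and telomerase genes had 22 of 32 members higher, a median of 0.06 and 0 at an unadjusted p under 0.05. Its smallest p values belonged to the helicase gene RTEL1 (log2 fold change 0.45, SE 0.34), to STN1 of the CST complex (0.45, SE 0.36) and to nbn, a double-strand break sensor (-0.49, SE 0.43). p53 targets and DNA damage genes had 20 of 50 higher with a median of -0.12. The only member at an unadjusted p under 0.05 by edgeR was foxo3b, in the lower direction, beside 0.890% of all genes. BTG2 (-1.29, SE 0.75) and CDKN1B (-0.52, SE 0.31), which restrain proliferation, overlapped within levels.

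Circadian clock genes had 9 of 40 members higher and a median of -0.21. By level, 9 of 40 stood higher below the limit (median -0.45) and 23 of 40 above it (0.23). The repressor gene PER1 had 1.99, 3.90 and 5.51 CPM in tert-/- livers and 29.7, 17.8, 2.02, 12.5 and 7.69 CPM in tert+/- livers, a log2 fold change of -1.36 (SE 0.57). The gut-marked livers were almost equal, so the difference lay below the limit. PER2 (-0.63, SE 0.28) and NFIL3 (-1.02, SE 0.56) followed.

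Complement and acute phase genes, most of them made by hepatocytes, had 17 of 58 members higher and a median of -0.15. At an unadjusted p under 0.05 by edgeR 1 member was higher and 3 were lower, beside 0.811% and 0.890% of all genes. The complement gene c3a.3 had 25.3, 141 and 206 CPM in tert-/- livers and 507, 646, 38.2, 335 and 232 CPM in tert+/- livers, lower in tert-/- within each level (log2 fold change -1.11, SE 0.40). leap2, an antimicrobial peptide gene, had a log2 fold change of -1.10 (SE 0.40) and the lectin gene hbl2 one of 1.07 (SE 0.37). hbl2 was abundant only in the gut-marked livers, with 16.2 CPM in tert-/- liver 1 and 14.6 CPM in tert+/- liver 3. Hepatocyte markers themselves had 9 of 49 higher and a median of -0.13, and took 4.81%, 13.9% and 24.9% of the counts in tert-/- livers 1 to 3 and 3.45% in tert+/- liver 3 but 21.7% to 26.3% in the other tert+/- livers.

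When each liver was left out in turn, the median spanned 0 for 19 of 35 lists, and it ranged from -0.76 to 1.48 for mitochondrially encoded genes, from -0.60 to 2.09 for exocrine pancreas genes and from -2.74 to -0.39 for striated muscle genes. Exocrine pancreas genes had 29 of 32 members higher and a median of 0.57, from a median difference of 5.03 above the limit, where tert-/- liver 1 stands, and -0.24 below it. The elastase gene cela1.3 had 54.0, 4.62 and 1.49 CPM in tert-/- livers and 4.75, 0.519, 0.470, 2.60 and 0.845 CPM in tert+/- livers, and the chymotrypsin-like ctrl 227, 21.6 and 10.8 CPM against 28.3, 5.51, 7.84, 23.8 and 9.60 CPM. The list also included zgc:92590, which stood lower (-1.79, SE 1.69). Striated muscle genes had 6 of 30 higher and a median of -0.93. Red blood cell genes had 5 of 18 higher and a median of -0.26, led by the membrane skeleton gene epb41b (-0.65, SE 0.31), nt5c2l1 (-0.95, SE 0.50) and the spectrin gene SPTB (-1.13, SE 0.87), the last with 66.5 CPM in tert+/- liver 5 and at most 16.3 CPM elsewhere.

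**Figure D4:**
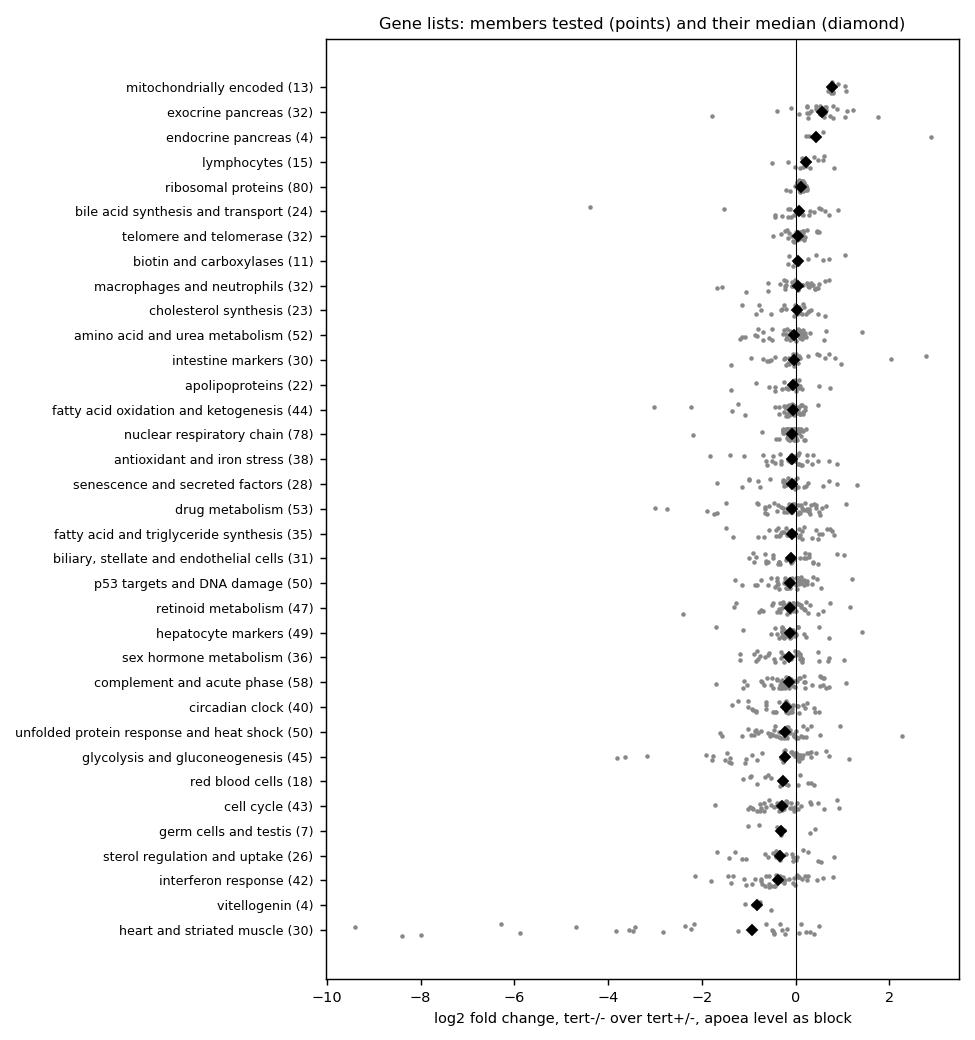
Fitted log2 fold change of tert-/- over tert+/- livers (x axis) for the tested members of 35 gene lists (grey points, number in brackets), ordered by their median (black diamond). The medians run from 0.78 for mitochondrially encoded genes and 0.57 for exocrine pancreas genes to -0.93 for striated muscle genes, beside -0.02 for all genes. Without tert-/- liver 2 the first is -0.76, and without tert+/- liver 5 the last is -0.39. Without tert+/- liver 3 the second is -0.60. In that fit tert-/- liver 1 is alone in its apoea level and drops out of the genotype difference.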

How the data were processed

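Liver RNA of 8 male zebrafish was measured by RNA sequencing after TruSeq library preparation. The authors deposited counts per gene, which were tested as deposited. Alignment to GRCz10 by STAR 2.4.1d, counting by featureCounts 1.4.6-p4 and base calls by bcl2fastq 1.8.4 are listed in the submitters' processing notes, whereas the methods name kallisto. The RPKM table of the authors was not used here. Of 32105 identifiers 26269 were paired with a symbol, some of them symbols of the matching human gene. Close paralogs, and overlapping or antisense genes, may share reads. Without a genome, sequences and coordinates were left out.

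Counts were filtered by filterByExpr on genotype (15166 genes), scaled by TMM and fitted in edgeR 4.0.16 (R 4.3.3) with the apoea level and genotype (5 residual degrees of freedom). Standard errors are the fold change divided by the root of F. Log2 CPM used a prior count of 2. Alternatives used DESeq2 1.42.0, limma 3.58.1, other scalings and filters, other blocks and leaving out each liver. The fit was also run on simulated counts with inserted changes, the outcome of which is not given here and is not used for any result. No 2 of the libraries were copies (28 pairs, chi-square per degree of freedom 105 or more). Labels do not say more on sampling than separate fish numbers, so p-values measure the spread between these livers.

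Named genes were apoea, tert, the 12 genes with the smallest p in each direction with mean log2 CPM not under 1, DESeq2 calls, cholesterol synthesis genes (a few are not reported here) and, from every other list described, the 3 members lowest in p. fabp10a, VIL1, ins and MYL7 are markers. The genes tested, the block and the 35 lists were chosen with earlier results of these data known. The counting interval covers counting error only.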

Additional observations from a re-analysis of the deposited data

Results flagged for a closer look

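In 6 of 83 named genes, 1 of the 4 tert+/- livers below the limit stood apart from the other 3, by a gap that made up more of the group's range than Dixon's 95% limit for 4 samples. Chance flags about 1 in 20 groups. Gaps and ranges were taken on log2 CPM with a prior count of 2. The levels printed below are TMM-normalised CPM, so the gap fractions do not follow from them directly.

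tert+/- liver 5, which also had the highest share of striated muscle transcripts, stood apart in 3 genes. PFKP had 16.9 CPM there and 2.80 to 3.32 CPM in the other 3 livers (gap 0.905 of the range). CDKN1B had 9.57 CPM there and 16.5 to 17.6 CPM in the others (0.896), and rbp7a had 0.282 CPM there and 0.538 to 0.571 CPM in the others (0.912). The part of the muscle transcripts in these values was not tested.

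tert+/- liver 4 stood apart in 2 genes. ENSDARG00000099419 had 3.55 CPM there and 33.0 to 44.6 CPM in the others (0.881), and SLC5A11 had 0.0394 CPM there and 0 CPM in the others (1), which is a single count. In tert+/- liver 1, pfkfb4a had 3.43 CPM, against 8.25 to 9.45 CPM in the others (0.866).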

How the results depend on the processing

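The count of genes called by edgeR was 0 under the alternatives run, except that leaving out tert+/- liver 4 gave 1 (ENSDARG00000099419) and DESeq2 gave 3. Leaving out single livers thus gave 0 to 1 calls. The interaction with the apoea level had 0 calls under the alternatives in which it was refitted. No paired analysis was possible because each fish has a number of its own that no fish of the other genotype shares. With 2 and 4 livers below the limit and 1 of each genotype above it, only large and even differences could be called, and a result of 0 calls does not show that the genotypes are alike. A low share of liver transcripts in the gut-marked livers limits what they can show of liver genes.

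The 258 genes at an unadjusted p under 0.05 were 130 with column totals, 170 without the block, 405 by DESeq2 and 443 without a filter on low counts, and 206 to 395 when 1 liver was left out. The 537 genes that did not overlap within levels were 260 with column totals and 831 without a filter. They were 1332 with the livers below the limit alone, 1899 when the muscle-marked tert+/- liver was also left out, and 760 to 2826 when any 1 liver was left out, since fewer livers have to agree in order there. That second omission and the covariate of intestine markers without apolipoproteins were chosen after seeing the data. The difference in tert ranged from -0.14 (without tert-/- liver 2) to 0.67 when 1 liver was left out.

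Of 1226 values of 83 named genes under alternatives other than leaving out single livers, 37 had another sign than with the block, and 42 of 656 did when 1 liver was left out. Their causes were not tested. Most were cholesterol synthesis genes. Without the block, log2 fold changes were 0.0136 for apoea, 0.0726 for slc5a8l, 0.52 for HMGCS1, 0.00791 for CYP51A1, 0.60 for SQLE, 0.59 for FDFT1, 0.99 for IDI1, 0.35 for TM7SF2, 0.54 for EBP and 0.0716 for pfkfb4a. With the intestine share as covariate they were -0.11 for SC5D, 0.39 for IDI1, -0.029 for HSD17B7, -0.0900 for MSMO1 and 0.35 for TM7SF2, and without apolipoproteins in that list -0.0327 for NSDHL. In the livers below the limit alone they were -0.0461 for SC5D, -0.24 for HSD17B7, -0.28 for MSMO1, -0.57 for PMVK, -0.18 for NSDHL, -0.56 for DHCR7 and -0.0285 for ctrl, and without the muscle-marked liver too -0.31 for PMVK, -0.18 for NSDHL, 0.18 for EBP and -0.25 for ctrl. In the fit of all 13 livers they were 0.0764 for IDI1, 0.10 for TM7SF2 and 0.0169 for EBP. Under limma-voom they were -0.17 for LSS, -0.17 for HSD17B7 and -0.20 for MSMO1. Upper quartile scaling gave 0.0385 for TM7SF2 and 0.0168 for EBP, and column totals 0.0056 for TM7SF2 and 0.0321 for EBP.

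When 1 liver was left out, log2 fold changes ranged from -0.59 to 0.73 for PMVK, -0.58 to 0.91 for DHCR7, -0.20 to 0.15 for NSDHL, -0.20 to 0.22 for TM7SF2, -1.25 to 1.498 for SC5D, -0.78 to 0.79 for HSD17B7, -1.08 to 0.94 for MSMO1, -1.40 to 0.0488 for CYP51A1, -2.36 to 0.27 for SQLE, -1.39 to 0.42 for FDFT1, -0.83 to 0.34 for IDI1, -1.08 to 0.61 for EBP, -1.08 to 0.91 for LSS, -1.61 to 1.502 for FDPS, -0.0589 to 0.60 for ACAT2, -0.0415 to 2.33 for ctrl, -0.70 to 0.63 for apoea and -0.11 to 0.70 for tert. Of 795 list medians under alternatives, 20 moved by more than the spread between livers, among them that of exocrine pancreas (2.58 without the block). With the intestine share as covariate the medians of hepatocyte markers, red blood cells, unfolded protein response and vitellogenin were -0.67, -1.09, -0.51 and -1.51.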

Other observations

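Some of the other gene groups also had most members on 1 side. Unfolded protein response and heat shock genes had 13 of 50 members higher in tert-/- livers. With 14 of 50 higher below and 15 of 50 higher above the apoea limit, most members stood lower in both levels under TMM. With column totals 44 of 50 stood higher above the limit, beside 13562 of all 15166 genes. The median there was 0.49 for the list and 0.74 for all genes. The fitted median log2 fold change of the list was -0.22 under TMM. In the higher direction, 1 of 50 members had an unadjusted p under 0.05 by edgeR, beside 0.811% of all genes. Antioxidant and iron stress genes had 13 of 38 higher (median -0.07). Drug metabolism genes (24 of 53, median -0.08) and bile acid synthesis and transport genes (13 of 24, median 0.07) split more evenly, beside 48.0% higher over all genes.

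Vitellogenins, the yolk precursors that the liver of females makes in quantity, had 0 of 4 tested members higher (median log2 fold change -0.83) in these male fish. Below the limit all 4 stood lower, above it 3 of 4 stood higher (median difference 1.02), and without tert-/- liver 2 the fitted median was -0.13. Together the list took at most 0.00982% of any liver's counts. Lymphocyte markers had 12 of 15 members higher (median 0.23), and took 0.00643% of the counts in tert-/- liver 1 and at most 0.00331% in the other 7 livers. Macrophage and neutrophil markers had 17 of 32 higher (median 0.05).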
